A study of Mus musculus with 16 samples.

Results

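Cathepsins are the proteases that break down proteins inside endosomes and lysosomes. They are made as inactive precursors, most reach the lysosome through mannose 6-phosphate receptors, and acid switches them on. In liver the lysosomal cathepsins are made by hepatocytes and by macrophages, whereas Ctse, an aspartic protease of endosomes, is best known from stomach epithelium and from some immune and red blood cells. The genes described here are Ctse and 9 other cathepsins, 10 of the 19938 genes that the arrays measure by name. They comprise the aspartic proteases Ctse and Ctsd, the serine carboxypeptidase Ctsa, and the cysteine proteases Ctsb, Ctsc, Ctsh, Ctsk, Ctsl, Ctss and Ctsz. Each was found by its gene symbol, and each is read by 1 probe set, so the rule that takes the probe set with the highest mean made no choice among them. Ctse was chosen by its own measured levels in these arrays, which differ between the genotypes, so everything on Ctse is a description with no test; the other 9 were taken as genes of the same kind.

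The arrays hold liver RNA of 16 adult mice, 1 array per mouse, in 4 groups of 4. WT_control and WT_HFD are wild-type mice given a control diet or a high-fat diet (HFD) for 12 weeks; Het_control and Het_HFD are Gli2 heterozygous null mice on the same diets. Gli2 is a transcription factor of the hedgehog pathway, and the study set a lowered dose of it against diet-induced fatty liver. The genotype label of the wild-type mice reads Gli1_WT although the series text names Gli2 alone, and they are treated as wild type. The sources used here do not give the strain, the sex, the deleted part of Gli2 or whether the 2 genotypes were littermates. An allele linked to Gli2 and the Gli2 null allele itself therefore cannot be told apart in this design. The numbers given to the mice here are only names and pair no animals across groups.

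Values are log2 levels made by the robust multi-array average (RMA), so a difference of 1 is a doubling. They are relative to the other arrays, and levels of different genes are not set against each other. Het_control 2 stands apart: over all genes it correlated with the other arrays at 0.961 to 0.979, whereas the remaining 15 correlated with each other at 0.991 to 0.998. Its gene levels were also less spread, with an interquartile range of 1.95 against 2.40 to 2.60 in the other 15. The part of this array-wide spread in its readings of single genes was not tested. The Gli2 probe set read 7.57 ± 0.02 in WT_control, 7.70 ± 0.30 in Het_control, 7.51 ± 0.08 in WT_HFD and 7.53 ± 0.07 in Het_HFD (mean ± SD, n = 4), with 8.14 in Het_control 2. Heterozygotes differed from wild type by 0.08 when the diets were averaged (SE 0.07, limma adjusted p = 0.632). The probe set does not check the genotype labels, because the probes may lie outside the deleted part. In liver tissue, fewer cells of a type and less RNA per cell cannot be told apart.

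Many lysosomal genes carry the hexamer CACGTG near their start, the core of the element through which the factor TFEB is known to drive lysosome formation. It is shown here because it is a feature that the choice of genes did not use. RefSeq (GRCm38.p6) start-site windows, 250 bases before to 50 after the start, were found for 7 of the 10 genes, in 8 windows. The hexamer, which reads the same on both strands, occurred in 3 of these 8 windows, those of Ctsa, Ctsd and Ctsl, and in 7.15% of all 32851 windows. In the stretches below, written 5′ to 3′ with the hexamer in capitals, the number is the position of its first base from the start.
Ctsa, chr2:164833523-164833822, plus strand, -12: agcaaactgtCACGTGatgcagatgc
Ctsa, same window, 6: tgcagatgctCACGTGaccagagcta
Ctsd, chr7:142387778-142388077, minus strand, -98: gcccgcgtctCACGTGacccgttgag
Ctsd, same window, -245: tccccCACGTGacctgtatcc
Ctsl, chr13:64370471-64370770, minus strand, -236: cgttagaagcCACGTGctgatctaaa
In Ctsa and Ctsd the hexamer occurred more than once. The windows of Ctsc, Ctsk, Ctss and Ctsz did not hold these letters.

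Ctse was low in all wild-type mice and high in 7 of the 8 heterozygotes, on either diet. On control diet the wild-type mice read 7.30, 7.60, 7.38 and 7.57, and on high-fat diet 7.50, 7.57, 7.49 and 7.25. The heterozygotes read 10.27, 9.06, 10.03 and 7.53 on control diet. On high-fat diet they read 10.09, 10.42, 10.82 and 11.23. The 8 wild-type values thus lie within 7.25 to 7.60, and 7 heterozygous values lie within 9.06 to 11.23, with nothing between these ranges. The exception is Het_control 4, whose 7.53 falls among the wild-type values. The deposited table gives no detection call, so whether the wild-type level lies above background is not known.

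**Figure D1:**
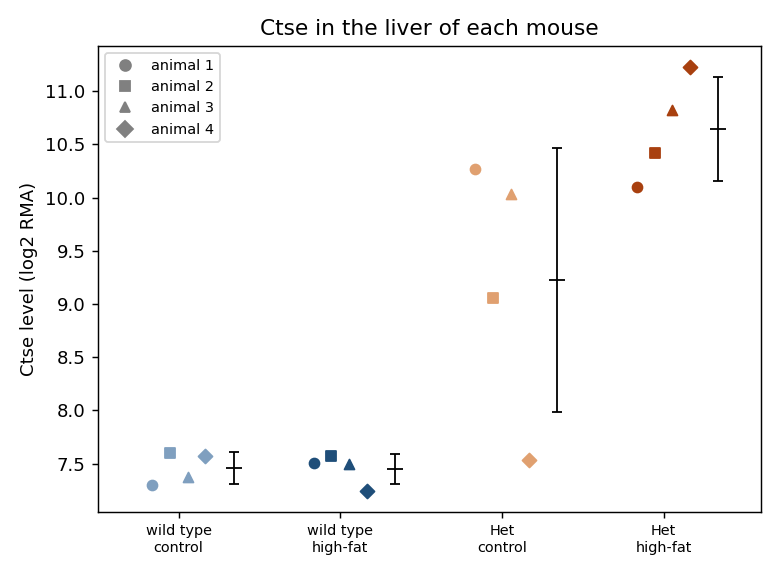
Level of Ctse (vertical axis, log2 RMA) in each of the 16 livers, by genotype and diet (horizontal axis); each point is 1 mouse, and the bar beside it is the mean ± SD of 4 mice. Wild-type mice sit between 7.25 and 7.60, heterozygotes between 9.06 and 11.23 apart from 1 control-diet mouse at 7.53.

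In order, the group means of Ctse were 7.45 ± 0.14 in WT_HFD, 7.46 ± 0.15 in WT_control, 9.22 ± 1.24 in Het_control and 10.64 ± 0.49 in Het_HFD (SD, n = 4). The first pair of neighbours differed by less than their spread. On high-fat diet the heterozygotes exceeded wild type by 3.19 (SE 0.41), or 9.12-fold, and the groups did not overlap. On control diet they exceeded it by 1.76 (SE 0.41), or 3.39-fold, and the groups overlapped through Het_control 4; without that mouse the difference was 2.33. Over both diets the genotype difference was 2.48 (SE 0.29), or 5.56-fold. Among all other genes the largest such difference in either direction was 1.11. Since its values chose it, the place of Ctse above all other genes is not a finding. These SE come from 1 spread shared by the 4 groups, although the SD of Ctse ran from 0.14 to 1.24 across them.

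The diet difference of Ctse was not the same in value in the 2 genotypes. In wild type the high-fat group differed from the control group by -0.01 (SE 0.41). In heterozygotes the difference was 1.42 (SE 0.41), or 2.67-fold, and the groups overlapped, since Het_control 1 at 10.27 lies above Het_HFD 1 at 10.09. Het_control 4 sets much of it: without this mouse the diet difference in heterozygotes was 0.85. The difference between the 2 diet responses was 1.43 (SE 0.57), or 0.86 without Het_control 4. Averaged over genotypes the diet difference was 0.70, or 0.42 without that mouse. Without Het_control 2, by contrast, the diet difference in heterozygotes was 1.36.

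Ctse and Gli2 lie on the same mouse chromosome, with 62 measured genes between them in RefSeq gene order, and these neighbours were described after the Ctse values had been seen. Their genotype differences over both diets ran from -0.18 to 0.24 with a median of 0.03, equal to the median of all genes at this precision. None was called, meaning a limma adjusted p under 0.05 over all 19938 genes. At an unadjusted p under 0.05 there were 8 of 62 (12.9%), against 7.76% of all genes. The 4 with the smallest p were the pseudogene C4bp-ps1 at 0.24, the chemokine receptor gene Cxcr4 at 0.13, Tmem37 at 0.17 and AA986860 at 0.12, each with adjusted p = 0.573. The 3 measured genes nearest to Ctse on its Gli2 side, Srgap2, Fam72a and the vasopressin receptor gene Avpr1b, differed by -0.06, 0.07 and -0.03. Beyond Ctse, Rab7b, Slc26a9 and Pm20d1 differed by -0.08, 0.08 and 0.08. Among the 62, Tmem37 had an r of 0.71 with Ctse over the 16 arrays. Ctse was chosen by its values, so its place above these genes is not a finding.

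**Figure D2:**
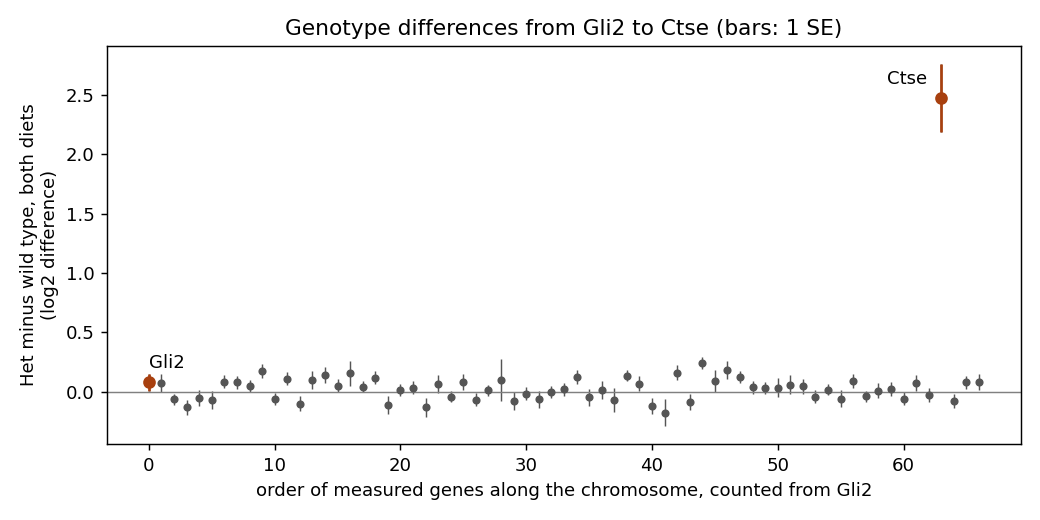
Genotype difference over both diets (vertical axis, log2, heterozygous minus wild type, bars 1 SE) of the measured genes from Gli2 to the third gene beyond Ctse, in chromosome order (horizontal axis). Ctse stands at 2.48, while the 62 genes between lie from -0.18 to 0.24.

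Markers of other cells that the tissue could hold are given beside these values; their part in the Ctse difference was not tested. Of 14 stomach, gut and gallbladder genes none was called by genotype on either diet, and 12 were higher in value on control diet and 8 on high-fat diet. The stomach peptide genes Tff1 and Tff2 each differed by 0.08 over both diets (limma adjusted p = 0.578 and 0.599). The red cell genes Alas2, of heme synthesis, and Slc4a1, an anion exchanger, differed by 0.03 and 0.07 over both diets (limma adjusted p = 0.858 and 0.621). The dendritic cell genes Itgax and Flt3 differed by 0.04 and 0.07 (limma adjusted p = 0.773 and 0.573). No member of 19 gene lists was called by genotype, on either diet or over both. Of all genes 0% were called on control diet, and 0.00502% on high-fat diet and over both diets. That share is 1 gene, Ctse itself, from which nothing is read, since its values chose it. These counts do not set the lists apart from other genes.

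Lymphocyte and macrophage markers were higher in value in heterozygotes on high-fat diet, and their part in the Ctse difference was not tested. The members' levels were summed per mouse, a sum that the brightest genes dominate. For 7 B cell genes the sum ran from 10.08 to 10.15 (log2) in WT_HFD and from 10.21 to 10.31 in Het_HFD, and for 9 T and natural killer cell genes from 10.53 to 10.58 and from 10.59 to 10.80. Neither pair of groups overlapped, while the other 17 of the 19 lists did overlap on this diet. Of all single genes, 3.75% had groups that did not overlap there. The gap for T and natural killer cell genes was narrow, from 10.579 to 10.588. All 7 B cell genes were above 0 in value, with a median of 0.08 against 0.01 over all genes and 2 at an unadjusted p under 0.05, and the receptor genes Cd79a and Ms4a1 were at 0.43 (SE 0.10, limma adjusted p = 0.628) and 0.14 (adjusted p = 1.0). Of the T and natural killer cell genes 8 of 9 were above 0, with a median of 0.12 and 2 at an unadjusted p under 0.05. Of 20 macrophage genes 19 were above 0, with a median of 0.30, and their sums overlapped. Among these 20, 10 had an unadjusted p under 0.05, against 3.57% of all genes. The lymphocyte sums of WT_HFD also lay below those of WT_control, which ran from 10.31 to 10.40 for B cell genes. For T and natural killer cell genes WT_control ran from 10.62 to 10.69. By diet in wild type the medians of these 2 lists were -0.19 and -0.07, against -0.01 over all genes. At an unadjusted p under 0.05 there were 3 of 7 and 3 of 9, against 6.43% of all genes.

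On control diet the sums of 15 of the 19 lists overlapped between the genotypes, those of B cells and T cells among them. The pancreas sum was higher in heterozygotes, at 10.87 to 11.20 against 10.81 to 10.86, with all 7 genes above 0 in value. The 11.20 is that of Het_control 2, and without it the highest heterozygous sum was 10.91. Of all single genes, 6.12% had groups that did not overlap on this diet. Sums of other lysosomal proteases, of lysosomal enzymes and membrane proteins, and of stellate cell and fibroblast genes were lower in heterozygotes. The median difference of the macrophage genes was -0.36 on this diet (-0.24 without Het_control 2) and 0.30 on high-fat diet. Their part in the Ctse difference was not tested.

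By a rule of likeness, the 5 genes whose levels followed Ctse most closely over the 16 arrays were named. They were Rpa2, a subunit of the replication protein A complex (Pearson's r = 0.807), Prox2 (0.805), the phosphatase regulator Ppp1r8 (0.792), the inflammatory cytokine gene Il1b (0.781) and the co-chaperone Bag1 (0.780). The same 5 led without Het_control 2, at 0.798 to 0.836. Because Ctse falls into a low and a high set of mice, such an r says mostly that a gene is somewhat higher in the same mice, and it was not tested. Their own spans were small beside the 3.98 of Ctse: 0.44 for Rpa2, 0.31 for Prox2, 0.30 for Ppp1r8, 1.25 for Il1b and 0.15 for Bag1. The other 9 cathepsins had an r with Ctse of -0.327, for Ctsk, to 0.282, for Ctss.

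No other cathepsin passed the test in any comparison when all mice entered with equal weight and no block. With title numbers as a random block, 5 of the 9 were called by diet in heterozygotes, where 34.8% of all genes were called, and 2 over both genotypes, where 18.6% were. Array weights called 1 over both genotypes, Ctsc, among 10.6% of all genes. The 7 contrasts were the diet difference in wild type and in heterozygotes, the genotype difference on each diet, each of the 2 averaged over the other factor, and the interaction of diet and genotype. Over the 16 mice their levels spanned 0.40 to 1.17, and 0.32 to 0.89 without Het_control 2, which read lowest for 7 of the 9. All were measured in every mouse, and no filter on low values was applied.

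**Figure D3:**
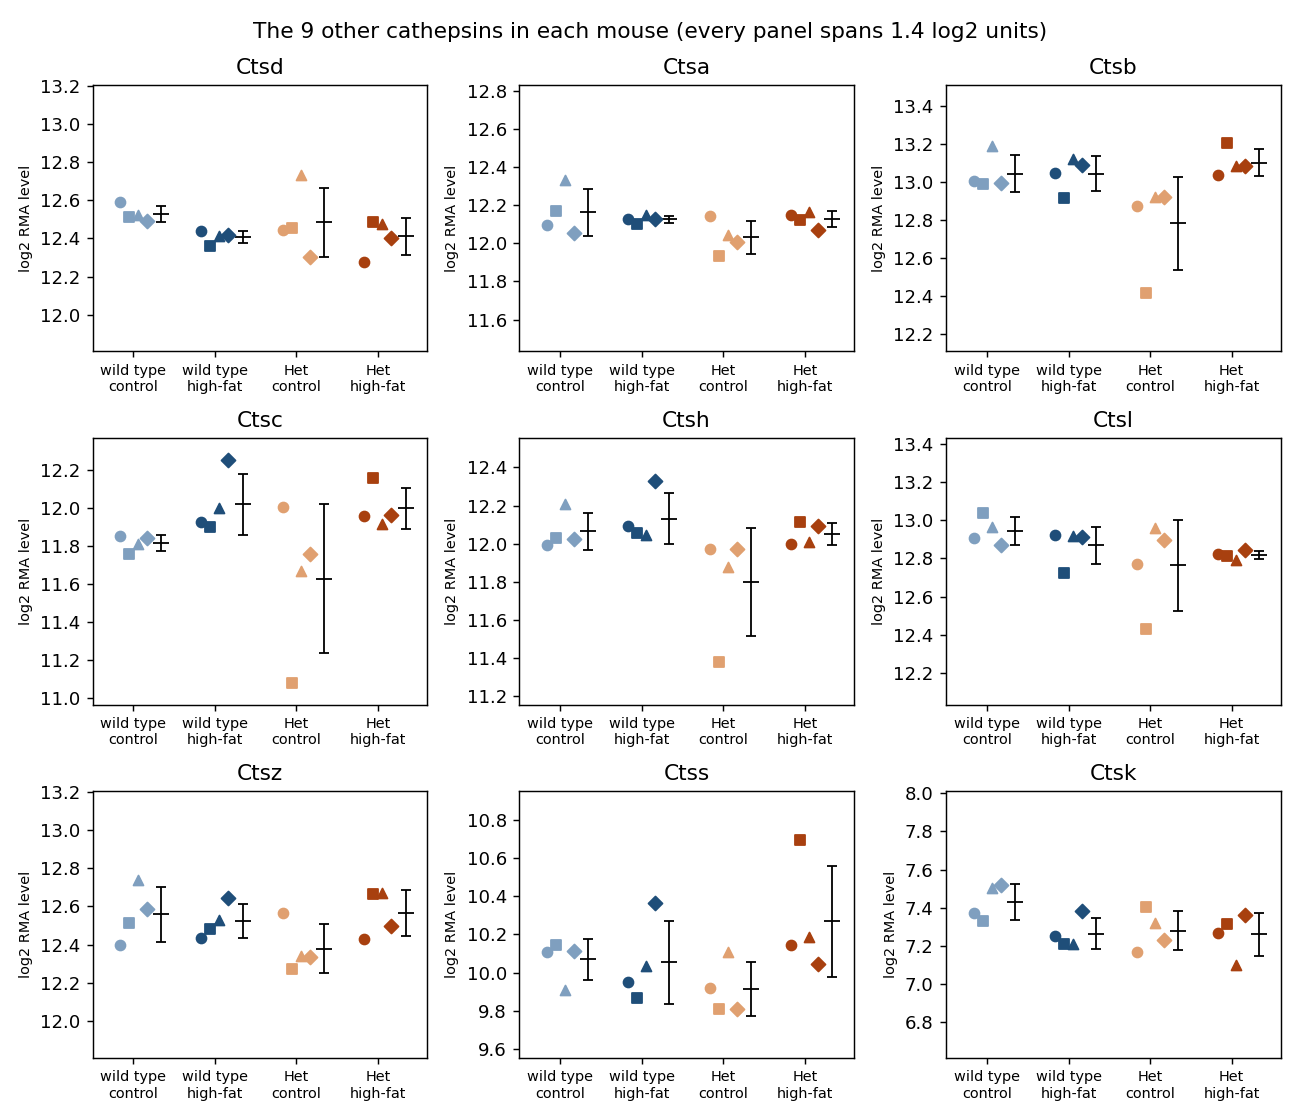
Levels (vertical axes, log2 RMA, each panel spanning the same width) of the 9 other cathepsins in each mouse by genotype and diet; points are single mice with the symbols animal 1 circle, 2 square, 3 triangle and 4 diamond, and bars are the mean ± SD of 4. The square of Het_control, animal 2, is the lowest point in 7 of the 9 panels.

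In heterozygotes the high-fat diet gave higher values for 7 of the 9, with a median of 0.19 against -0.05 over all genes, and limma called 0 of the 9 where it called 2.22% of all genes. At an unadjusted p under 0.05 there were 5 of 9, against 31.6% of all genes. The lysosomal protease gene Ctsb read 12.88, 12.42, 12.92 and 12.92 in Het_control, and 13.04, 13.20, 13.08 and 13.08 in Het_HFD. Its groups did not overlap, and Het_control 2 was the low mouse. The difference was 0.32 (SE 0.10, adjusted p = 0.0723), or 0.20 (adjusted p = 0.121) without Het_control 2, whereas without Het_control 4 it was 0.36 (adjusted p = 0.0307) and was called, with 17.3% of all genes called there. Without Het_control 2 the calls were 0 of the 9 and 0.873% of all genes. Ctsh, an aminopeptidase, read 11.97, 11.38, 11.88 and 11.97 in Het_control, and 12.00, 12.11, 12.01 and 12.09 in Het_HFD, which again did not overlap. Its difference was 0.25 (SE 0.11, adjusted p = 0.135), or 0.11 without Het_control 2 and 0.13 after a repeated quantile normalization. Such separation of the groups, seen in 2 of the 9, was found in 13.7% of all genes.

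Ctsc, which activates the serine proteases of neutrophils and killer lymphocytes, had the largest diet value, 0.37 (SE 0.14, limma adjusted p = 0.107). Its readings were 12.00, 11.08, 11.67 and 11.76 in Het_control, and 11.96, 12.16, 11.92 and 11.96 in Het_HFD. They overlapped, and without the low Het_control 2 the difference was 0.19. Ctss, the cathepsin of antigen-presenting cells that trims the invariant chain from class II molecules, read 9.92, 9.81, 10.11 and 9.81 against 10.14, 10.70, 10.19 and 10.05. Het_HFD 2 stood highest, the groups overlapped, and the difference was 0.36 (SE 0.13, adjusted p = 0.101), or 0.22 without Het_HFD 2. The carboxypeptidase gene Ctsz read 12.57, 12.27, 12.34 and 12.34 in Het_control, and 12.43, 12.67, 12.67 and 12.50 in Het_HFD. These groups overlapped through Het_control 1, and the difference was 0.19 (SE 0.09, adjusted p = 0.150), or 0.07 after the repeated normalization. The remaining 4 were closer to 0, with Ctsa, the carboxypeptidase that protects other lysosomal enzymes, at 0.09, the endopeptidase gene Ctsl at 0.05, the collagen-degrading cathepsin gene Ctsk at -0.02 and the main lysosomal aspartic protease gene Ctsd at -0.07. Ctsa turned negative after a repeated quantile normalization, as did Ctsl, which was also negative without Het_control 2. Ctsk turned positive under both changes, and Ctsd without Het_control 3, while the normalization took Ctsd to -0.18.

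In wild type the high-fat diet left the 9 between -0.17, for Ctsk, and 0.20, for Ctsc, with 3 higher and 6 lower in value. Limma called 0 of the 9, and 0% of all genes, with 1 of the 9 at an unadjusted p under 0.05 against 6.43% of all genes. Ctsk read 7.37, 7.33, 7.50 and 7.52 in WT_control, and 7.25, 7.21, 7.21 and 7.38 in WT_HFD, a difference of -0.17 (SE 0.07, adjusted p = 0.742), and these groups overlapped. Ctsd read 12.59, 12.51, 12.52 and 12.49 in WT_control, and 12.44, 12.36, 12.41 and 12.42 in WT_HFD, a difference of -0.12 (SE 0.08, limma adjusted p = 0.880). Ctsc read 11.85, 11.76, 11.81 and 11.84 in WT_control, and 11.93, 11.90, 12.00 and 12.25 in WT_HFD, a difference of 0.20 (SE 0.14, limma adjusted p = 0.891). For these 2 of the 9 the groups did not overlap, Ctsd lying lower and Ctsc higher on the high-fat diet, a pattern that 8.5% of all genes showed. Ctsb was at 0.0003 (SE 0.10). Over both genotypes 0 of the 9 were called, against 1.86% of all genes, with 2 of the 9 at an unadjusted p under 0.05 against 26.9% of all genes. The largest value was that of Ctsc at 0.29 (SE 0.10, limma adjusted p = 0.111). The interaction, which tests whether the diet difference depends on genotype, was above 0 in value for all 9, from 0.05 to 0.37, and for 8 of the 9 without Het_control 2, where Ctsc was at -0.02 and Ctsl at 0.02. After a repeated quantile normalization it was also above 0 for 8 of the 9, with Ctsd at -0.02. It called 0 of the 9 and 0% of all genes, with 1 of the 9 at an unadjusted p under 0.05 (8.13% of all genes) and a smallest limma adjusted p = 0.581 for Ctsb.

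By genotype on control diet all 9 were lower in value in heterozygotes, from -0.26 for Ctsh to -0.05 for Ctsd, with a median of -0.18 against 0.04 over all genes. Limma called 0 of the 9 and 0% of all genes, and 2 of the 9 had an unadjusted p under 0.05, against 15.7% of all genes. Ctsb (-0.26, SE 0.10, adjusted p = 0.289) and Ctsh (-0.26, SE 0.11, adjusted p = 0.300) had groups that did not overlap, as had 6.12% of all genes. Het_control 2 carried much of this: without it Ctsb was at -0.14, Ctsh at -0.12 and Ctsc at -0.0042 in place of -0.19, and the median of the 9 was -0.12. After a repeated quantile normalization 8 of the 9 were lower, with Ctsd at 0.05. Macrophage and endothelial markers were lower too in this comparison, with medians of -0.36 over 20 genes (12 at an unadjusted p under 0.05) and -0.34 over 10 (7), or -0.24 and -0.22 without Het_control 2, and their part in these values was not tested. On high-fat diet the 9 lay between -0.08 and 0.22 with a median of 0.0001, and groups overlapped for all 9, while they did not for 3.75% of all genes. There limma called 0 of the 9 and 0.00502% of all genes; that share is 1 gene, Ctse itself, and nothing is read from it, since its values chose it. At an unadjusted p under 0.05 there were 0 of the 9, against 3.57% of all genes. Over both diets it called 0 of the 9, with 1 at an unadjusted p under 0.05, against 0.00502% of all genes, again Ctse. The comparisons of diet and of genotype share the Het_control mice, so the higher diet values and the lower genotype values of Ctsb and Ctsh are not separate observations.

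**Figure D4:**
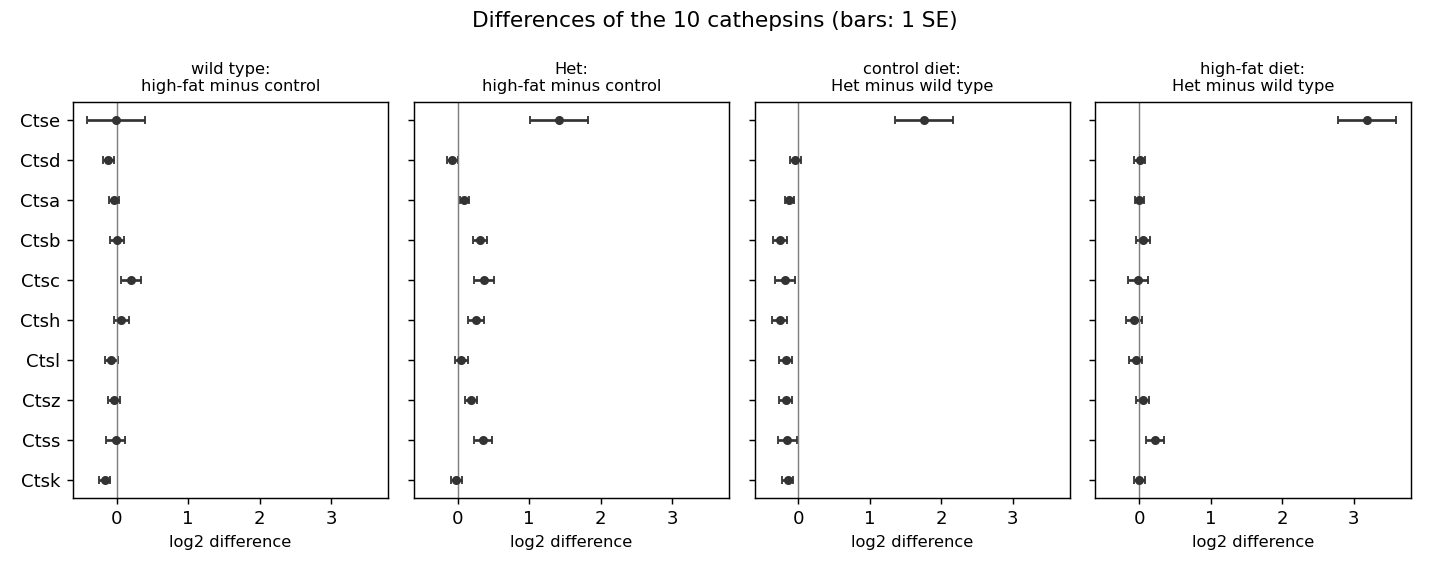
Log2 differences (horizontal axis, points) with 1 SE (bars) for the 10 cathepsins (rows) by diet in each genotype and by genotype on each diet. The 9 other cathepsins lie between -0.26 and 0.37 in all 4 panels, and Ctse reaches 3.19 in heterozygotes on high-fat diet.

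Genes that work with cathepsins are given for diet in heterozygotes, where 2.22% of all genes were called, 1.5% rising and 0.712% falling. Of 13 other lysosomal proteases 0 were called, with a median of 0.20; Ctsf was at 0.01 (SE 0.07, limma adjusted p = 0.906) and Ctso at 0.49 (SE 0.14, adjusted p = 0.0593). Of 28 lysosomal enzymes and membrane proteins 0 were called, with a median of 0.11, Lamp1 being at 0.05 and Lamp2 at 0.23. Of 17 genes of the proton pump and its chloride partner that acidify lysosomes 0 were called, although 16 were above 0 in value with a median of 0.32. The pump accessory genes Atp6ap1 and Atp6ap2, were at 0.30 (SE 0.09, adjusted p = 0.0687) and 0.43 (SE 0.18, adjusted p = 0.131). Without Het_control 4, with 17.3% of all genes called, 10 of these 17 rose, as did 4 of the other proteases and 4 of the enzymes and membrane proteins; without Het_control 2 the 3 medians were 0.17, 0.07 and 0.04. Of 13 genes of delivery and control 0 were called, with a median of 0.11; the mannose 6-phosphate receptor gene Igf2r was at 0.16 and the sorting receptor gene Sort1 at -0.62 (SE 0.19, adjusted p = 0.0723). Without Het_control 4, 1 of these 13 rose and 1 fell. The numbers with an unadjusted p under 0.05 were 5 of 13, 7 of 28, 10 of 17 and 3 of 13 in these lists, against 31.6% of all genes. A repeated quantile normalization took the median of the other proteases to 0.12, of the enzymes and membrane proteins to -0.0014, of acidification to 0.24 and of delivery and control to -0.0084, with 13 of 28 and 5 of 13 above 0 in the second and last in place of 24 and 10.

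Of 15 cathepsin inhibitors 1 fell, the cysteine protease inhibitor gene Csta2, by 0.54 on the log2 scale (SE 0.14, limma adjusted p = 0.0494). The count stayed at 1 without Het_control 3 or Het_control 4, was 0 without any other mouse, and was 0 after a repeated quantile normalization. The secreted inhibitor gene Cst3 was at 0.14 and Cst6 at -0.13. Of 8 genes for granule proteins that Ctsc activates or that lie beside them 0 were called, with 1 at an unadjusted p under 0.05 and a median of -0.15; Elane was at -0.14 and Prtn3 at -0.11, and 1 of the 8 fell without Het_control 4. Of 7 genes of class II antigen processing, in which Ctss takes part, 2 rose: H2-DMa, a peptide-exchange factor, by 0.62 (SE 0.14, adjusted p = 0.0379) and the thiol reductase gene Ifi30 by 0.40 (SE 0.09, adjusted p = 0.0352). The invariant chain gene Cd74 was at 0.56 (SE 0.19, adjusted p = 0.0920) and H2-Aa at 0.31. The count stayed at 2 without WT_control 3, Het_control 4, WT_HFD 2 or WT_HFD 4. It was 0 without WT_control 1, Het_control 2, Het_HFD 2, Het_HFD 3 or Het_HFD 4, and 1 without any other mouse or after a repeated quantile normalization. The summed level of the class II genes ran from 12.34 to 12.71 (log2) in Het_control and from 12.64 to 13.70 in Het_HFD, and these groups overlapped.

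Macrophage markers stood beside these values. None of the 9 cathepsins was called by diet in heterozygotes. All 20 macrophage markers were above 0 in value there, with a median of 0.53, and 12 of them rose, against 1.5% of all genes. They included Tyrobp, a signalling adaptor, by 0.74 (SE 0.12, limma adjusted p = 0.0118), the complement gene C1qb by 0.63, Cd68, a lysosomal membrane protein of macrophages, by 0.52, and Laptm5 by 0.53. The surface receptor genes Adgre1 and Csf1r rose by 0.80 and 0.63. The count moved when single mice were left out. It was 1 without Het_HFD 2 or Het_HFD 3, 2 without Het_control 1 or Het_HFD 4, and 3 without WT_control 1, WT_control 2 or Het_HFD 1. It was 4 without Het_control 2, where 0.873% of all genes were called, and 5 without WT_HFD 3. It was 6 without WT_control 4, 7 without WT_HFD 1 and 8 without WT_control 3. It was 12 without Het_control 3, WT_HFD 2 or WT_HFD 4, and 13 without Het_control 4, where 17.3% of all genes were called. The median stayed within 0.45 to 0.60. Wild-type mice enter the shared spread and the adjustment over all genes, but not this difference. Without any 1 of them the median stayed at 0.53. After a repeated quantile normalization the count was 7, where 1.86% of all genes were called. Summed, the 20 markers ran from 14.07 to 14.62 (log2) in Het_control and from 14.75 to 15.12 in Het_HFD, which did not overlap, and from 14.60 to 14.74 in WT_control and 14.31 to 14.92 in WT_HFD. The part of macrophage number in the values of Ctss, Ctsb and the others was not tested.

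**Figure D5:**
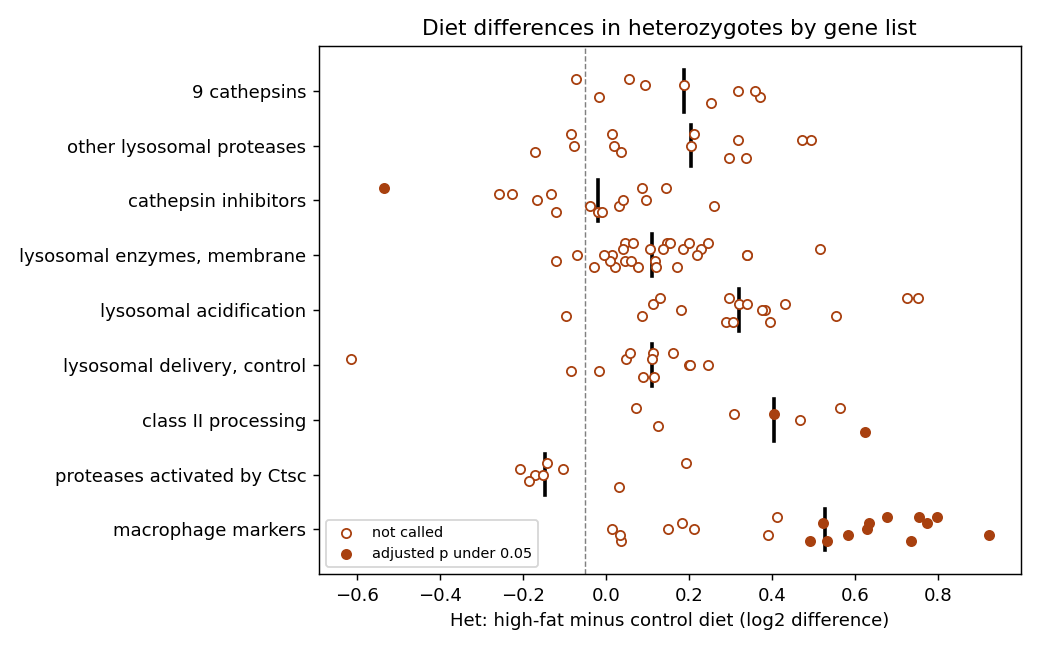
Diet difference in heterozygotes (horizontal axis, log2, high-fat minus control) of each gene (points) in the 9 cathepsins and 8 related lists (rows); filled points have an adjusted p under 0.05, black bars are list medians and the dashed line is the median of all genes, -0.05. Filled points are 12 macrophage markers, 2 class II genes and 1 inhibitor.

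The other marker lists are given for the same comparison, in which 2.22% of all genes were called. The bile duct keratin gene Krt23 rose by 0.99 (SE 0.22, limma adjusted p = 0.0356), 1 of 7 bile duct genes, while Krt19 and Krt7 were at -0.19 and -0.14. The retinol storage gene Lrat rose by 0.96 (SE 0.23, adjusted p = 0.0465), 1 of 12 stellate cell and fibroblast genes, with Col1a1 at -0.23 and Col1a2 at -0.16. The bile duct count was 0 without WT_control 1, WT_control 2, Het_control 1, Het_control 2, Het_control 3 or any Het_HFD mouse, and 3 without Het_control 4. The stellate count was 1 without Het_control 3, WT_HFD 2 or WT_HFD 4, 2 without Het_control 4 and 0 without any other mouse, and 0 after a repeated quantile normalization. No gene was called in the lists of 8 dendritic (unadjusted p under 0.05 in 1), 7 B cell (1), 9 T and natural killer cell (1), 10 neutrophil (2), 7 red cell (4), 14 stomach, gut and gallbladder (10), 10 endothelial (5), 7 pancreas (3) and 10 hepatocyte genes (0); the share of all genes at that p was 31.6%. Of the 14 stomach, gut and gallbladder genes 13 were below 0, with a median of -0.19. Without Het_control 4, where 17.3% of all genes were called, 4 of these 14 fell and 1 rose, 3 endothelial genes rose, 1 red cell gene rose and 1 fell, and 2 pancreas genes fell. Among the first genes of these lists, the T cell receptor genes Cd3d and Cd3e were at -0.15 and -0.03, the neutrophil genes S100a8 and S100a9 at -0.12 and -0.18, and the endothelial genes Pecam1 and Cdh5 at 0.09 and 0.28. The stomach genes Tff1 and Tff2 were at -0.25 and -0.24, while the red cell gene Alas2 was at 0.37 (SE 0.10, limma adjusted p = 0.0525). Hepatocyte markers, among them Alb at 0.003 and Apoa1 at -0.09, had a median of -0.04, and their summed level lay between 16.83 and 16.96 in all mice. No member of the 19 lists was called by diet in wild type.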

How the data were processed

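Liver RNA of 16 mice was hybridised to Affymetrix MoGene 1.0 ST arrays. The table the authors deposited holds log2 values of 35556 probe sets; the submitters' processing notes name RMA and Affymetrix's Expression Console. No version or genome build is given there. RMA includes a step that equalises the arrays' distributions, so a shift of all transcripts would not be seen. The deposited gene levels were still not equal in spread, and those of Het_control 2 were the narrowest. The platform annotation gives 1 symbol to 21789 probe sets, several to 1621 and none to 12146; the last 2 kinds were left out. Symbols were updated by Entrez number with a RefSeq table (GRCm38.p6; 19856 of 19938 genes matched), and the probe set with the highest mean stood for a gene.

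All 16 arrays entered 1 limma 3.58.1 fit (R 4.3.3) with a mean per group. The fit was first run on simulated data with the same spread in every group. The differences planted there were larger than those of the other cathepsins, so that run does not bear on calls of small differences. P-values set a difference against the spread between mice within groups of 4. That spread is 1 estimate per gene shared by the 4 groups, so Het_control 2 enters it in wild-type comparisons too. They were adjusted over 19938 genes by Benjamini-Hochberg, and an adjusted p under 0.05 is a call. The number of arrays limits the precision. The members, lists and tests were chosen with earlier results of these data known. Named are the 10 cathepsins, Gli2, the 5 genes most like Ctse, and of each list the first 2 measured members and up to 4 called members with the smallest p; the genes near Ctse were named after their values were seen. The sample titles carry 11 numbers, 5 of them shared by several mice, of unstated meaning; they served as a random block in 1 alternative. Other alternatives were a repeated quantile normalization, trend and robust moderation, array weights (statmod 1.5.0), only the contrast's arrays, every probe set, no dim genes, and leaving out each array.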

Additional observations from a re-analysis of the deposited data

Results flagged for a closer look

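Among the 40 groups of 4 formed by the 10 cathepsins, 7 readings lay far from the other 3 of their group. Chance flags about 1 group in 20. The 10 genes are read on the same arrays, so the groups are not independent and no excess over chance is read from this. WT_control 3 read high for Ctsb (13.19) and Ctsh (12.21) and low for Ctss (9.91). Het_control 2 read low for Ctsb (12.42) and Ctsh (11.38). WT_HFD 4 read high for Ctsh (12.33) and WT_HFD 2 low for Ctsl (12.72).

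For Ctsa and Ctsl every high-fat mouse lay below the control mean of its genotype in wild type and above it in heterozygotes. The average was -0.037 and 0.094 for Ctsa and -0.076 and 0.055 for Ctsl. Het_control 2 read lowest for both genes. Without it the difference in heterozygotes was 0.061 for Ctsa and -0.058 for Ctsl, so the pattern of Ctsl rests on that mouse. The interaction did not pass for either (limma adjusted p = 0.665 and 0.727).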

How the results depend on the processing

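The Ctse differences moved by less than 1 SD between mice in all 35 values from settings that left out no mouse. Leaving out 1 mouse, the genotype difference ran from 1.41 to 2.33 on control diet, from 2.99 to 3.37 on high-fat diet and from 2.30 to 2.76 over both, and the diet difference from 0.85 to 1.77 in heterozygotes and from -0.06 to 0.06 in wild type; the interaction ran from 0.86 to 1.78 and diet over both genotypes from 0.42 to 0.88. Only 1 Ctse probe set exists in the table, so no other could be tried. The count of other cathepsins called stayed at 0 in 43 of 46 such values. Where title numbers entered as a random block, whose estimated correlation was -0.372, 5 were called by diet in heterozygotes (Ctsb, Ctsc, Ctsh, Ctss and Ctsz, all higher) among 34.8% of all genes, and 2 over both genotypes (Ctsb and Ctsc) among 18.6%. Array weights called 1 over both genotypes (Ctsc) among 10.6%. Leaving out 1 mouse gave 0 to 1 by diet in heterozygotes, the 1 being Ctsb without Het_control 4, and 0 in the other 6 contrasts. By diet in heterozygotes a repeated quantile normalization gave -0.025 for Ctsa, -0.053 for Ctsl and 0.093 for Ctsk. Leaving out 1 mouse, Ctsl ran from -0.058 (without Het_control 2) to 0.119, Ctsd from -0.134 to 0.011 (without Het_control 3) and Ctsk from -0.055 to 0.036 (without Het_HFD 3), with 0.024 without Het_control 2; the cause of these changes was not tested. By diet in heterozygotes the repeated normalization took the macrophage count from 12 to 7, class II from 2 to 1, and the inhibitor and stellate counts from 1 to 0.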
